A study of Mus musculus with 2 samples.

Results

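The cells described here are keratinocytes of mouse back skin that were picked by counting transcripts of 4 genes linked to the upper bulge of the hair follicle. A kept cell was selected when it held at least 20 unique molecular identifiers (UMIs, each standing for 1 captured transcript) of the basal keratins Krt5 and Krt14, and at least 3 UMIs in all of Pthlh, Aspn, Postn and Sema3e. It also had to hold under 3 UMIs of the bulge genes Cd34 and Krt24, under 3 of Krt75, Sncg and Fgf18, under 20 of the upper follicle genes Krt79, Defb6 and Cst6, and under 20 of the collagens Col1a1 and Col1a2. The rule selected 904 of 7564 kept cells, 482 in the control library and 422 in the induced library. These were 15.1% (13.9 to 16.4) of 3183 control keratinocytes and 15.8% (14.4 to 17.2) of 2676 induced keratinocytes. The shares differed by 0.627 percentage points, a description of 1 mouse beside 1 mouse.

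The study asked how miR-205, a microRNA of stratified epithelia, acts in hair follicle stem cells, and profiled single skin cells of 2 mice, with 1 library per mouse. Both mice were gender-matched littermates at postnatal day 53 on a C57BL/6 background per the labels, and both carried a Krt14-driven nuclear green fluorescent reporter (H2BGFP). The induced mouse also held a doxycycline-inducible miR-205 transgene switched on through rtTA under the Krt14 promoter, so induction was expected in Krt14-expressing epithelium, and it ate doxycycline chow for 4 days from day 49. The sample characteristics call the control untreated, whereas the extraction protocol and the methods state that both mice were fed doxycycline. Cells were sorted to an epidermal, follicle and dermal ratio of 3 to 5 to 2, which sets part of every share given here. With 1 library per group no test of induction exists, and the mouse, the library and the treatment cannot be told apart. All intervals are 95% exact Poisson intervals for levels and exact Clopper-Pearson intervals for shares, and they cover counting error only.

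The upper bulge lies just below the sebaceous gland, where the lanceolate endings of touch-sensing neurons wrap the follicle. Its keratinocytes are known to shape this contact: they deposit EGFL6 in the basement membrane, secrete BDNF for the sensory endings, and contain cells that respond to hedgehog ligand released by nerves. Pthlh encodes parathyroid hormone-related protein, a secreted peptide that restrains hair growth. Aspn encodes asporin, a small leucine-rich proteoglycan that binds collagen and TGF-beta. Postn encodes periostin, a matricellular protein, and Sema3e a secreted semaphorin that signals through plexin D1.

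The sequences shown are the microRNA that was induced and the start-site regions of the 2 genes for which the cells are named. The mature miR-205-5p of RefSeq on build GRCm38.p6 lies on chromosome 1, minus strand, at chr1:193507503-193507524. Its seed, bases 2 to 8, is in capitals.
mmu-miR-205-5p: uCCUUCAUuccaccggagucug
The regions around the Pthlh and Aspn start sites, 250 bases before and 50 after, were taken from the same RefSeq build, on the minus strand at chr6:147263964-147264263 and on the plus strand at chr13:49544193-49544492. Capitals mark the TATA-like letters TATAAA on either strand, which 13.6% of 32851 such regions hold.
Pthlh: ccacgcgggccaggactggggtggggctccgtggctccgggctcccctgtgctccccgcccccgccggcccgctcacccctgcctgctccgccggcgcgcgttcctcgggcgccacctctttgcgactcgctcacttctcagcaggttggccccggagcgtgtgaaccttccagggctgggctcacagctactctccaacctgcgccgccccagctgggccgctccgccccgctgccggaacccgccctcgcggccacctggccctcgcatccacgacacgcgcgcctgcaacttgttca
Aspn: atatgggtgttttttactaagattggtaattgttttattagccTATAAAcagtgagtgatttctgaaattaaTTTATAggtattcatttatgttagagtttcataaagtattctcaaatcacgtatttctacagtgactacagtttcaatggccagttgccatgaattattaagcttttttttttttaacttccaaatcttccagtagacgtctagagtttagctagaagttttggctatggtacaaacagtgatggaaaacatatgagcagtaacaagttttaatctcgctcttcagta
Although both genes were counted in the same cells, their start regions differ in base composition. The Pthlh region is 74% G and C, and 4.44% of all such regions are richer. The Aspn region is 31% G and C, with 2 TATAAA matches, and 1.28% of all regions are poorer. Neither region held the letters GGAATG or TAATTA on either strand, which 14.7% and 5.29% of regions hold. A match is a description of the letters, not a binding site.

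There were 4545 barcodes with 55465594 UMIs in the control and 4264 barcodes with 49733560 UMIs in the induced matrix. After the study's stated filter, 3936 and 3628 cells were kept, and 11 barcodes occurred in both libraries, none of them among the selected cells. Median UMIs per selected cell were 12015 in the control and 12234 in the induced library. For comparison, bulge cells (Cd34 and Krt24 at 3 UMIs or more) numbered 342 and 417, and upper follicle cells (Krt79, Defb6 and Cst6 at 20 UMIs or more) numbered 386 and 351. Keratinocytes that met none of these thresholds, called other keratinocytes, numbered 1823 and 1174. The host transcript of miR-205, 4631405K08Rik, stood at 118 CPM (counts per 1000000 UMIs of the cell set) in control and 124 CPM in induced selected cells. The log2 ratio was 0.08 (-0.07 to 0.23). This transcript comes from the endogenous locus, so it does not check the transgene.

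Most selected cells did not hold the 2 genes of the label. Postn alone reached the threshold in 289 control cells (60.0%) and 198 induced cells (46.9%). A Pthlh UMI was present in 35.9% of control and 43.8% of induced selected cells, and an Aspn UMI in 22.8% and 35.3%. Of the selected cells with Aspn, 72.7% in the control and 75.8% in the induced library also held Pthlh, which describes the choice of cells, since both genes are in the rule. The cells are therefore called selected cells below, and the name upper bulge is not given to them as a whole. A split made after the values were seen separates Pthlh/Aspn-positive cells (at least 3 UMIs of both genes together) from Pthlh/Aspn-negative cells (no UMI of either).

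Pthlh/Aspn-positive cells numbered 121 in the control and 165 in the induced library, which is 25.1% and 39.1% of the selected cells. Per keratinocyte, they made up 3.80% and 6.17%. These shares rest on genes of the rule and on 1 mouse per library, so they describe the cells and test nothing. The shares among selected cells were 14.0 percentage points apart as counted and 6.40 points apart when each cell was first thinned to 5000 UMIs. Pthlh/Aspn-negative cells numbered 279 and 201, or 57.9% and 47.6% of the selected cells. The positive cells were shallower, with median UMIs of 9514 and 9870 against 13126 and 15016 in the negative cells.

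**Figure D1:**
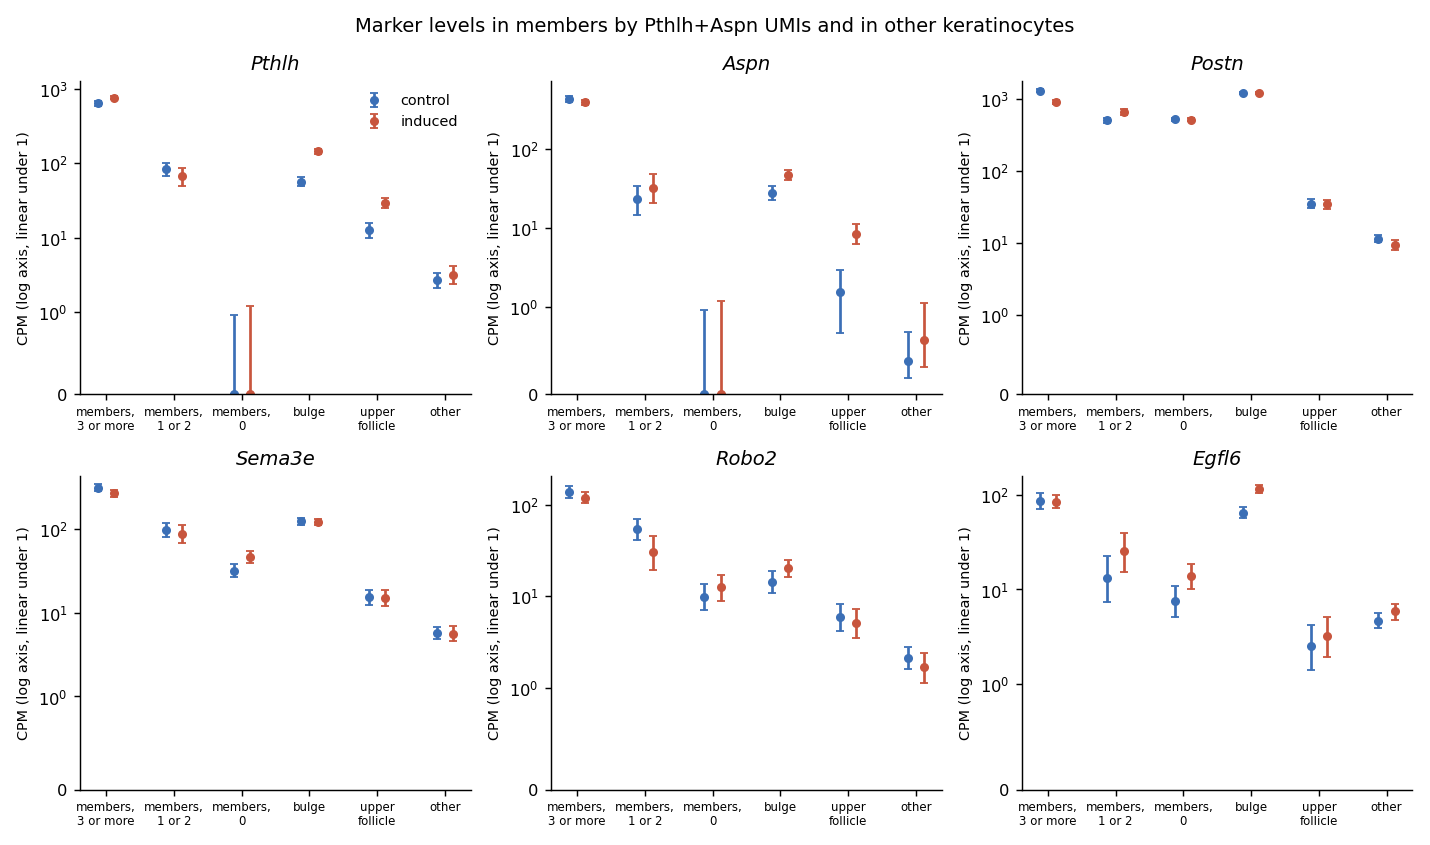
Levels of the 4 genes of the rule, of Robo2 and of Egfl6 in CPM (log axis, linear under 1) in the selected cells by their Pthlh plus Aspn UMIs, in bulge, upper follicle and other keratinocytes, for the control and the induced library; bars are 95% counting intervals. Robo2 stood highest in the cells with 3 or more Pthlh and Aspn UMIs, at 138 and 119 CPM, and lowest in other keratinocytes, at 2.12 and 1.69 CPM.

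The levels of the 4 genes of the rule describe how the cells were chosen. In selected cells Pthlh stood at 149 CPM in the control and 251 CPM in the induced library, with 2.66 and 3.16 CPM in other keratinocytes. Aspn stood at 94.1 and 126 CPM, against 0.386 and 0.621 CPM in other keratinocytes. Postn stood at 688 and 660 CPM in selected cells and higher, at 1200 and 1205 CPM, in bulge cells, which the rule leaves out for their Cd34 and Krt24. Sema3e stood at 102 and 122 CPM in selected cells, close to the 123 and 121 CPM of bulge cells. The bulge cells also held Pthlh, at 56.7 and 144 CPM, and Aspn, at 27.8 and 46.4 CPM.

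Robo2, a receptor for the SLIT guidance proteins, was named as a marker of these cells but took no part in the rule. It stood at 44.5 CPM (39.4 to 50.1) in control and 48.6 CPM (43.0 to 54.7) in induced selected cells, against 2.12 and 1.69 CPM in other keratinocytes. The log2 ratios over other keratinocytes were 4.38 (3.97 to 4.84) and 4.82 (4.30 to 5.44). Within the selected cells Robo2 followed the Pthlh/Aspn split: 138 and 119 CPM in positive cells, but 9.93 and 12.6 CPM in negative cells. The bulge cells lay between, at 14.5 and 20.3 CPM. The log2 ratio of positive over bulge cells was 3.25 (2.80 to 3.74) in the control and 2.55 (2.18 to 2.93) in the induced library.

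By cells, Robo2 was present in 29.9% of control and 34.1% of induced selected cells, and in 18.1% and 22.3% after thinning, which left out 17 and 14 shallower cells. Immune cells, which should lack the gene, held Robo2 in 3.08% and 2.04% before thinning and 2.13% and 2.10% after it, at median depths of 7334 and 7557.5 UMIs. Among selected cells with an Aspn UMI, 80.9% in the control and 70.5% in the induced library held Robo2. Among those with neither Pthlh nor Aspn the shares were 10.0% and 11.4%.

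Robo2 was higher in cells with more summed marker UMIs, and cells just inside the threshold were close to those just outside it. Cells with 2 summed UMIs, outside the rule, held Robo2 at 5.39 and 7.01 CPM, and cells with 3, inside it, at 9.81 and 9.35 CPM. From 3 to 4 summed UMIs to 20 or more, Robo2 went from 12.1 to 138 CPM in the control and from 10.6 to 113 CPM in the induced library. Bdnf, the neurotrophin of the upper bulge, went from 1.72 to 161 CPM and from 0 to 114 CPM over the same steps. Egfl6 went from 7.46 to 97.2 CPM and from 9.85 to 106 CPM. Lgr6, a receptor for R-spondins found in the isthmus, went from 31.0 to 95.4 CPM and from 25.8 to 67.5 CPM. Lgr5, a marker of the lower bulge and hair germ, stood at 35.0 CPM (26.8 to 45.0) in the first of these bins and at 13.4 CPM (7.49 to 22.1) in the last in the control library. In the induced library its levels in the 2 outer bins were 13.6 and 17.5 CPM, with overlapping intervals. The last bin held 106 control and 115 induced cells. Lgr5 was the only measured hair germ marker 2-fold lower in positive than in negative cells. Of 5 measured, 3 stood 2-fold higher (Gli1, Ptn and Wif1), beside 3.26% higher and 3.40% lower of all genes. Over bulge cells none of 6 stood 2-fold higher and 1 lower (Lgr5), beside 5.77% and 4.80% of all genes. Its 6 genes put the list at 2512 and 2587 CPM in positive, 935 and 713 CPM in negative, and 2071 and 2093 CPM in bulge cells.

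**Figure D2:**
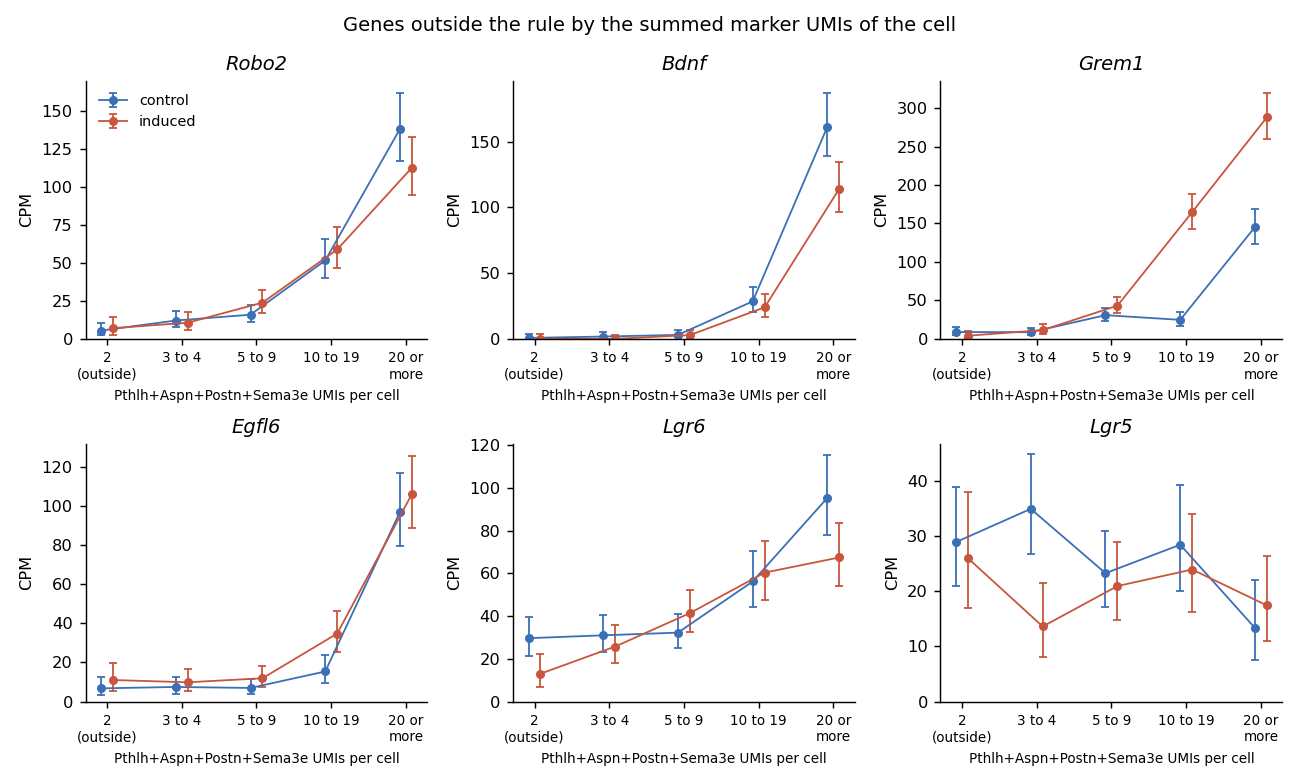
Levels in CPM of 6 genes outside the rule against the summed Pthlh, Aspn, Postn and Sema3e UMIs of the cell, for the control and the induced library; bars are 95% counting intervals and the first position, 2 UMIs, lies outside the rule. Bdnf reached 161 and 114 CPM in the last bin, while Lgr5 there stood at 13.4 and 17.5 CPM.

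Across all genes, 11295 had at least 20 UMIs over selected cells and other keratinocytes in each library, genes of the rule left out. Of these, 299 (2.65%) stood at least 2-fold higher in selected cells in both libraries, and 181 (1.60%) at least 2-fold lower. These counts describe cells that were chosen by expression and are no test. The median log2 ratio of all genes was 0.06 in the control and 0.04 in the induced library. Between Pthlh/Aspn-positive and Pthlh/Aspn-negative cells, 284 of 8707 genes (3.26%) stood 2-fold higher and 296 (3.40%) 2-fold lower in both libraries.

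The 12 highest genes over other keratinocytes, chosen by a fixed rule of size, were Robo2, Bdnf, Grem1, Ctgf, Bmp6, Ank, Pdzrn3, Pi15, Plpp1, Serpinb11, Vwa2 and Wfdc3. Robo2 and Ank stood higher in selected cells than in bulge cells in both libraries, Serpinb11 did so in the control library, and the other 9 had lower levels than in bulge cells in both. Ank, which exports pyrophosphate and ATP, stood at 124 and 153 CPM in selected cells, with 382 and 387 CPM in positive and 32.1 and 28.4 CPM in negative cells. Serpinb11, an epithelial serpin, stood at 99.1 and 115 CPM, with 283 and 262 CPM in positive cells. Bmp6, a BMP ligand, stood at 44.5 and 47.7 CPM in positive cells and at 3.14 and 4.52 CPM in negative cells.

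At the low end over other keratinocytes were Mt4, Sox6, Mmp10, Mmp13, Has3, Gdpd2, Cdh4 and Gm94. Mt4, a metallothionein of stratified epithelia, was counted 3 times in control and 15 times in induced selected cells (0.486 and 2.66 CPM), against 41.0 and 40.4 CPM in other keratinocytes. Sox6, a transcription factor, stood at 4.53 and 4.79 CPM against 38.9 and 33.7 CPM. The differentiation keratins followed the same order. Krt10 stood at 82.7 and 153 CPM in selected cells against 571 and 718 CPM in other keratinocytes, and Krt1 at 11.3 and 44.0 CPM against 195 and 286 CPM.

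Of the 10 genes of the upper bulge niche list, all measured, 5 stood 2-fold higher in selected cells in both libraries (Bdnf, Egfl6, Gli1, Lgr6 and Robo2) and none 2-fold lower, where 2.65% and 1.60% of all genes did. Over bulge cells 4 stood higher (Lgr6, Lrig1, Plet1 and Robo2) and 3 lower (Egfl6, Krt15 and Npnt), where 5.77% and 4.80% of all genes did. In positive over negative cells 6 of 10 stood 2-fold higher, the same 5 with Ptch1, and none lower, where 3.26% and 3.40% of all genes did. Egfl6, whose protein is laid down at the upper bulge basement membrane, stood at 86.8 and 84.7 CPM in positive and 7.58 and 13.9 CPM in negative cells. Its level in bulge cells was 64.8 and 115 CPM, so positive over bulge gave log2 ratios of 0.42 in the control and -0.43 in the induced library. Npnt, the nephronectin that bulge cells lay down for the arrector pili muscle, stood at 18.3 and 15.6 CPM in selected cells. In bulge cells Npnt stood at 93.5 and 75.9 CPM, and the log2 ratios of selected over bulge cells were -2.35 (-2.68 to -2.04) and -2.27 (-2.64 to -1.93).

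Genes of the isthmus above the bulge were higher in selected cells than in bulge cells. Lgr6 stood at 93.7 and 89.8 CPM in positive cells, 26.9 and 22.3 CPM in negative cells, and 14.8 and 16.7 CPM in bulge cells. Krt17, a follicle keratin, stood at 13131 and 12778 CPM in positive cells, 3699 and 3417 CPM in negative cells, and 2088 and 2893 CPM in bulge cells. Lrig1, a stem cell marker of the junctional zone, stood at 33.8 and 42.1 CPM in positive cells and 11.9 and 10.4 CPM in bulge cells. Of 8 measured genes on the isthmus and infundibulum list, 7 stood 2-fold higher in selected cells than in bulge cells in both libraries, where 5.77% of 9993 genes did. Over other keratinocytes 4 of 9 did, and 3 of 8 in positive over negative cells, beside 2.65% and 3.26% of all genes. The list summed to 8862 and 10125 CPM in selected cells and to 16504 and 17428 CPM in positive cells. Upper follicle cells also held it high, at 16194 and 15849.5 CPM. Plet1, a surface protein of the isthmus, stood at 2710.4 and 4160 CPM in positive cells, 1991 and 2216 CPM in negative cells, and 792 and 997 CPM in bulge cells.

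Genes of the bulge were lower in selected cells. Krt15, a keratin of bulge stem cells, stood at 2531 and 2854 CPM in selected cells, 8660 and 10638 CPM in bulge cells, and 3501 and 4003 CPM in other keratinocytes. Lgr5 stood at 10.8 and 5.05 CPM in positive cells, 34.2 and 28.1 CPM in negative cells, and 93.8 and 69.6 CPM in bulge cells. Sfrp1, a secreted WNT antagonist, stood at 11.3 and 38.9 CPM in selected cells against 240 and 350.1 CPM in bulge cells. Of 7 bulge markers outside the rule, 6 stood 2-fold lower in selected cells than in bulge cells in both libraries, where 4.80% of all genes did. The rule itself removed cells with Cd34 and Krt24, the markers of that compartment.

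**Figure D3:**
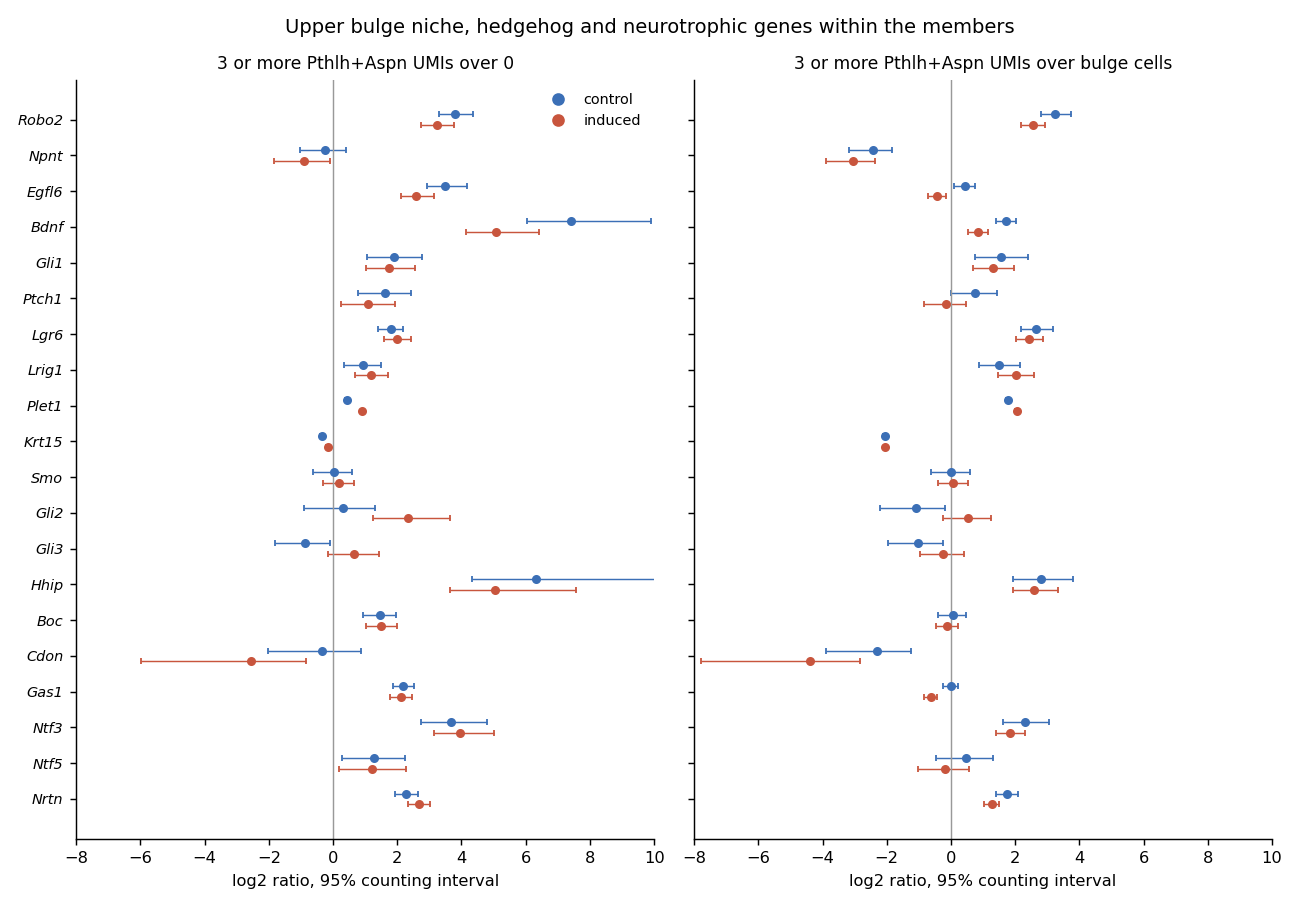
Log2 ratios with 95% counting intervals (some run past the axis) for genes of the upper bulge niche, hedgehog and neurotrophic lists, on the left for Pthlh/Aspn-positive over negative cells and on the right for positive cells over bulge cells, in each library. Robo2 and Bdnf stand right of 0 in both panels, at 3.78 and 7.40 in the control over negative cells, while Egfl6 does so only on the left in both libraries.

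Hedgehog ligand from nerves and epithelium binds PTCH1 together with the co-receptors GAS1, BOC and CDON and activates GLI1 and HHIP, 2 targets that report the response. Of 12 hedgehog genes measured, 5 stood 2-fold higher in selected cells than in other keratinocytes in both libraries (Boc, Gas1, Gli1, Gli2 and Hhip) and none lower, beside 2.65% and 1.60% of all genes. Over bulge cells none of 10 stood higher and 2 lower (Cdon and Gas1), beside 5.77% and 4.80% of all genes. Gli1 stood at 21.5 and 25.2 CPM in positive cells, 5.75 and 7.42 CPM in negative cells, and 7.23 and 10.1 CPM in bulge cells. Its log2 ratio of positive over negative cells was 1.90 (1.05 to 2.78) in the control and 1.75 (1.01 to 2.56) in the induced library. Hhip, a decoy receptor, was counted 40 and 66 times in positive cells (30.7 and 37.0 CPM) and 1 and 3 times in negative cells. The log2 ratios were 6.31 (4.32 to 12.2) and 5.05 (3.65 to 7.57). Ptch1, receptor and target, stood at 21.5 and 15.7 CPM in positive cells and at 7.06 and 7.42 CPM in negative cells.

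In positive cells the co-receptors Gas1 and Boc stood near or below their levels in bulge cells. Gas1 stood at 157 and 146 CPM in positive cells, and at 159 and 225 CPM in bulge cells. Boc stood at 49.9 and 55.5 CPM, and at 48.3 and 60.2 CPM in bulge cells. Hhip did stand higher in positive than in bulge cells, where its levels were 4.34 and 6.04 CPM. Smo, the signal transducer, stood at 24.6 and 33.7 CPM in positive, 24.6 and 29.7 CPM in negative and 24.6 and 32.1 CPM in bulge cells, so in each library its levels in the 3 sets had overlapping intervals.

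Among neurotrophic factors, Bdnf, Nrtn and Ntf3 stood higher in positive than in negative cells. Bdnf stood at 154 and 92.6 CPM in positive cells, 0.784 and 2.58 CPM in negative cells, 46.9 and 51.7 CPM in bulge cells, and 0.849 and 0.0564 CPM in other keratinocytes. In negative cells it rested on 3 control and 8 induced UMIs, and the log2 ratios of positive over negative cells were 7.40 (6.05 to 9.91) and 5.08 (4.15 to 6.40). Nrtn, the GDNF-family ligand neurturin, stood at 130 and 178 CPM in positive cells and 26.7 and 28.1 CPM in negative cells. Ntf3, the neurotrophin-3 gene, stood at 37.6 and 62.8 CPM against 2.87 and 3.87 CPM. Ntrk2, which encodes the BDNF receptor, was low in positive cells, at 4.61 and 3.93 CPM, and stood at 43.6 and 54.2 CPM in negative cells.

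Of 33 axon guidance genes measured, 2 stood 2-fold higher in selected cells than in other keratinocytes (Robo2 and Efnb2) and 2 lower (Sema3d and Sema3f), beside 2.65% and 1.60% of all genes. Over bulge cells 6 of 30 stood higher (Nrp2, Robo1, Robo2, Sema3d, Sema5a and Sema6a) and 3 lower (Efna5, Ephb6 and Plxna2). Of all genes, 5.77% stood higher and 4.80% lower over bulge cells. Efnb2, a membrane-bound ephrin ligand, stood at 227 and 259.8 CPM in positive cells and 53.6 and 65.8 CPM in negative cells. Robo1, the paralog of Robo2, showed the opposite order, at 3.07 and 2.81 CPM in positive and 12.8 and 12.6 CPM in negative cells. Sema3f stood at 4.21 and 7.28 CPM in selected cells and at 15.7 and 18.4 CPM in other keratinocytes. Slit2, a ROBO ligand, was counted 3 and 4 times over all selected cells.

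Among basement membrane genes, Col4a3 and Col4a4, which encode collagen IV chains of specialised basement membranes, both stood 2-fold higher in selected cells in both libraries. Col4a4 was counted 73 and 76 times in positive cells (56.1 and 42.6 CPM), and 3 times in control and 0 times in induced negative cells. Col4a3 was counted 32 and 37 times in positive cells (24.6 and 20.8 CPM), and 2 and 1 times in negative cells. Bulge cells held Col4a4 at 3.47 and 7.97 CPM and Col4a3 at 0.579 and 1.69 CPM. Of 23 basement membrane genes measured over other keratinocytes, only these 2 and Egfl6 stood 2-fold higher in both libraries, and none stood lower, beside 2.65% and 1.60% of all genes. Over bulge cells 2 of 22 stood higher (Col4a3 and Lama4) and 4 lower (Col17a1, Col18a1, Egfl6 and Npnt). Of all genes, 5.77% and 4.80% did. None of the 11 integrin genes measured passed 2-fold over other keratinocytes in both libraries, beside 2.65% and 1.60% of all genes.

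Secreted regulators of TGF-beta, BMP and WNT signalling were also among the genes past the fold. Of 25 TGF-beta and BMP genes, 7 stood 2-fold higher in selected cells (Fst, Fstl1, Grem1, Ltbp1, Ltbp2, Tgfb2 and Tgfb3) and 1 lower (Bmp4), beside 2.65% and 1.60% of all genes. Over bulge cells the balance was the other way, with 4 higher (Bmp4, Bmp7, Tgfb2 and Tgfb3) and 9 lower, Fstl1, Grem1 and Ltbp2 among them. Of all genes, 5.77% stood higher and 4.80% lower over bulge cells. Tgfb2 stood at 225 and 216 CPM in positive cells, 20.6 and 20.3 CPM in negative cells, and 13.9 and 23.0 CPM in bulge cells. Grem1, a BMP antagonist, stood at 151 and 306 CPM in positive cells, and at 170.2 and 312 CPM in bulge cells. Fst, the activin antagonist follistatin, stood at 4748 and 4281 CPM in selected cells and at 1226 and 705 CPM in other keratinocytes. Wif1, a secreted WNT inhibitor, stood at 106 and 114 CPM in positive cells and 6.53 and 10.6 CPM in negative cells. Of 27 WNT genes, 3 stood 2-fold higher than in other keratinocytes (Dkk3, Fzd1 and Wif1) and 2 lower (Wnt3 and Wnt5a). The shares of all genes were 2.65% and 1.60%. Over bulge cells 3 of 22 stood higher (Wnt10a, Wnt3 and Wnt6) and 5 lower (Dkk3, Fzd2, Lgr5, Nkd1 and Sfrp1). There the shares of all genes were 5.77% and 4.80%.

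Ctgf, a matricellular gene also known as Ccn2, stood at 627 and 1043 CPM in positive cells, 49.7 and 51.0 CPM in negative cells, and 262 and 548 CPM in bulge cells. Cryab, a small heat shock protein, stood at 200 and 296 CPM in positive cells and 8.36 and 11.6 CPM in negative cells. Crabp2, a carrier of retinoic acid, stood at 91.4 and 101 CPM in positive cells, with 198 and 213 CPM in upper follicle cells and 10.4 and 7.25 CPM in bulge cells. Pth1r, the receptor for the peptide that Pthlh encodes, was counted 2 times in control and 0 times in induced selected cells. None of the 8 measured genes of PTHrP signalling passed 2-fold over other keratinocytes in both libraries, beside 2.65% and 1.60% of all genes.

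Transcription factors of the follicle stood 2-fold higher in selected cells than in other keratinocytes for 5 of 17 genes (Barx2, Lhx2, Nfatc1, Runx1 and Sox9) and lower for none, beside 2.65% and 1.60% of all genes. Over bulge cells 1 stood higher (Gata6) and 4 lower (Lhx2, Nfib, Tbx1 and Zbtb16), beside 5.77% and 4.80% of all genes. Lhx2, a LIM homeobox factor of bulge stem cells, stood at 123 and 157 CPM in positive cells, 24.0 and 32.9 CPM in negative cells, and 209 and 247 CPM in bulge cells. Nfatc1, which holds bulge stem cells in quiescence, stood at 186 and 199 CPM in positive cells, 67.9 and 61.6 CPM in negative cells, and 146 and 121 CPM in bulge cells. Sox9, required for follicle stem cells, stood at 684 and 997 CPM in positive cells, and at 556 and 490 CPM in negative cells.

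Cycling genes stood higher in the negative cells. Of 12 cycling genes, 6 stood 2-fold lower in positive than in negative cells in both libraries, where 3.40% of all genes did. None stood 2-fold higher, beside 3.26% of all genes. In selected over bulge cells 10 of 12 stood 2-fold higher in both libraries and none lower, beside 5.77% and 4.80% of all genes. The list summed to 217 and 138 CPM in positive, 416 and 447 CPM in negative, and 173 and 174 CPM in bulge cells. Pclaf, a factor of replicating DNA, stood at 8.45 and 1.68 CPM in positive and 69.8 and 80.0 CPM in negative cells. Top2a stood at 39.2 and 14.6 CPM against 94.6 and 94.2 CPM. The other genes lowest in positive cells by the rule of size were Calcb, Hist1h2ap, Ntrk2, Pyy, Rassf9, Stfa3 and Tnfrsf19. Tnfrsf19, a follicle receptor also called Troy, stood at 1.54 and 2.81 CPM against 30.1 and 31.3 CPM. Pyy, a gut peptide gene, was present in 3.58% of control and 11.4% of induced negative cells at 46.5 and 148 CPM. In immune cells with under 20 collagen and under 20 upper follicle UMIs Pyy was counted 0 and 1 times, at median depths of 7129 and 6528 UMIs. After thinning its shares in negative cells were 3.30% and 8.25%.

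Markers of other lineages were counted in few selected cells, in some cases mostly in 1 library. Immune genes, 8 on the list and all detected, summed to 278 CPM in control and 50.9 CPM in induced selected cells. In control Pthlh/Aspn-positive cells they summed to 1162 CPM, against 33.1 CPM in the induced library, and 6 control and 7 induced selected cells held 5 or more such UMIs. Cd207, a Langerhans cell marker, was counted 493 times in control selected cells, 97.0% of them in 5 cells. Smooth muscle genes summed to 30.9 and 135 CPM. Acta2, the actin of smooth muscle, rested on 444 induced UMIs, of which 99.3% lay in 5 cells. Fibroblast genes, 7 on the list, summed to 69.0 and 105 CPM, and the rule capped Col1a1 and Col1a2. Sebaceous genes summed to 124 and 387 CPM, with 133 and 600.3 CPM in negative cells, 145 and 57.8 CPM in positive cells, and 2027 and 3756 CPM in upper follicle cells. Of 6 sebaceous genes, 4 stood higher in induced selected cells and in induced negative cells (Mgst1, Plin2, Pparg and Scd1). In positive cells none of 4 stood higher and 2 lower (Mgst1 and Plin2). Of all genes, 5.30% stood higher and 2.97% lower in induced selected cells. In negative cells 596 of 9644 genes stood higher and 265 lower. In positive cells 284 of 7877 genes stood higher and 294 lower. Endothelial genes summed to 2.3 and 5.5 CPM, with Cdh5 and Emcn at 0 in both libraries, and Schwann genes to 1.1 and 2.7 CPM, with Cdh19 at 0 in both. Melanocyte genes summed to 38.0 and 23.1 CPM, with Sox10 at 0 in the control and Dct, Mlana and Tyrp1 at 0 in the induced library. The dermal papilla list summed to 21.2 and 25.6 CPM, most of it from Hhip and Crabp1, with Sox18 at 0 in both libraries. The part of these cells in the results was not tested. Without members holding 5 or more immune UMIs, the all-gene counts over other keratinocytes and between libraries did not move by over 1.5 times. The counts between positive and negative cells, over bulge cells and within gene lists were not rerun this way.

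Between the libraries, 559 of 10555 genes (5.30%) stood at least 1.5-fold higher in induced selected cells with a counting interval above 1, and 313 (2.97%) at least 1.5-fold lower with an interval below 1. The median log2 ratio of all genes was 0.01. These are differences between 1 mouse and 1 mouse. In the same comparison, 845 of 12119 genes stood higher and 395 lower in other keratinocytes. In bulge cells 679 of 9780 genes stood higher and 375 lower. The cell sets differed in total UMIs, so these counts are not set against each other.

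None of the 10 niche genes passed this limit in selected cells, beside 5.30% higher and 2.97% lower of all genes. Their median log2 ratio was 0.12, beside 0.01 for all genes. Robo2 stood at 44.5 and 48.6 CPM, with a log2 ratio of 0.13 (-0.12 to 0.37). Lgr6 stood at 48.4 and 47.9 CPM, with a log2 ratio of -0.01 (-0.26 to 0.23). In positive cells alone, Bdnf stood lower in the induced library, 92.6 against 154 CPM, with a log2 ratio of -0.74 (-1.04 to -0.43). Bdnf in bulge cells stood at 46.9 and 51.7 CPM, with a log2 ratio of 0.14 (-0.16 to 0.44). Plet1 stood higher in induced positive cells, at 4160 against 2710.4 CPM, a log2 ratio of 0.62.

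Grem1, Ctgf, Ntf3 and Nrtn stood higher in the induced library. Grem1 stood at 44.0 CPM (39.0 to 49.6) in control and 118 CPM (109.6 to 128) in induced selected cells, a log2 ratio of 1.42 (1.22 to 1.64). Because more of the induced selected cells were Pthlh/Aspn-positive, the ratio was also taken inside each class. It was 1.01 in positive cells, 0.97 in negative cells and 0.87 in bulge cells. Ctgf had log2 ratios of 0.87 in all selected cells, 0.73 in positive cells, 0.04 (-0.28 to 0.35) in negative cells, 1.06 in bulge cells and 1.87 in other keratinocytes. Ntf3 had log2 ratios of 1.11 (0.70 to 1.54) in selected, 0.73 (0.24 to 1.25) in positive and 0.42 (-0.88 to 1.75) in negative cells. Nrtn stood at 50.5 and 80.6 CPM in selected cells, a log2 ratio of 0.67 (0.46 to 0.89). Within the classes Nrtn did not reach 1.5-fold, with log2 ratios of 0.46 (0.19 to 0.74) in positive and 0.08 (-0.36 to 0.50) in negative cells.

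The genes that the study names as miR-205 targets were set beside the median of all genes. None of the 6 passed the limit in either direction, beside 5.30% higher and 2.97% lower of all genes. Of the 6 targets, 5 lay below the median of all genes (0.01), and their median log2 ratio was -0.16. Actb, the cytoplasmic actin, stood at 6342 and 5377 CPM in selected cells, a log2 ratio of -0.24, and Rock2, a kinase of actomyosin contraction, at 320.4 and 252 CPM, a log2 ratio of -0.35. Actn1, an actin crosslinker, stood at 196 and 214 CPM, a log2 ratio of 0.13. Of 68 measured genes of the actin cytoskeleton, 2 stood higher (Mylk and Rhoc), 1 lower (Diaph3), beside 5.30% and 2.97% of all genes. Their median log2 ratio was -0.06, and 47 of 68 lay below the median of all genes. In other keratinocytes Actb had a log2 ratio of -0.27 and Rock2 of -0.41. Actb had a log2 ratio of -0.54 (-0.57 to -0.52) in bulge cells and of -0.05 (-0.07 to -0.03) in upper follicle cells.

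**Figure D4:**
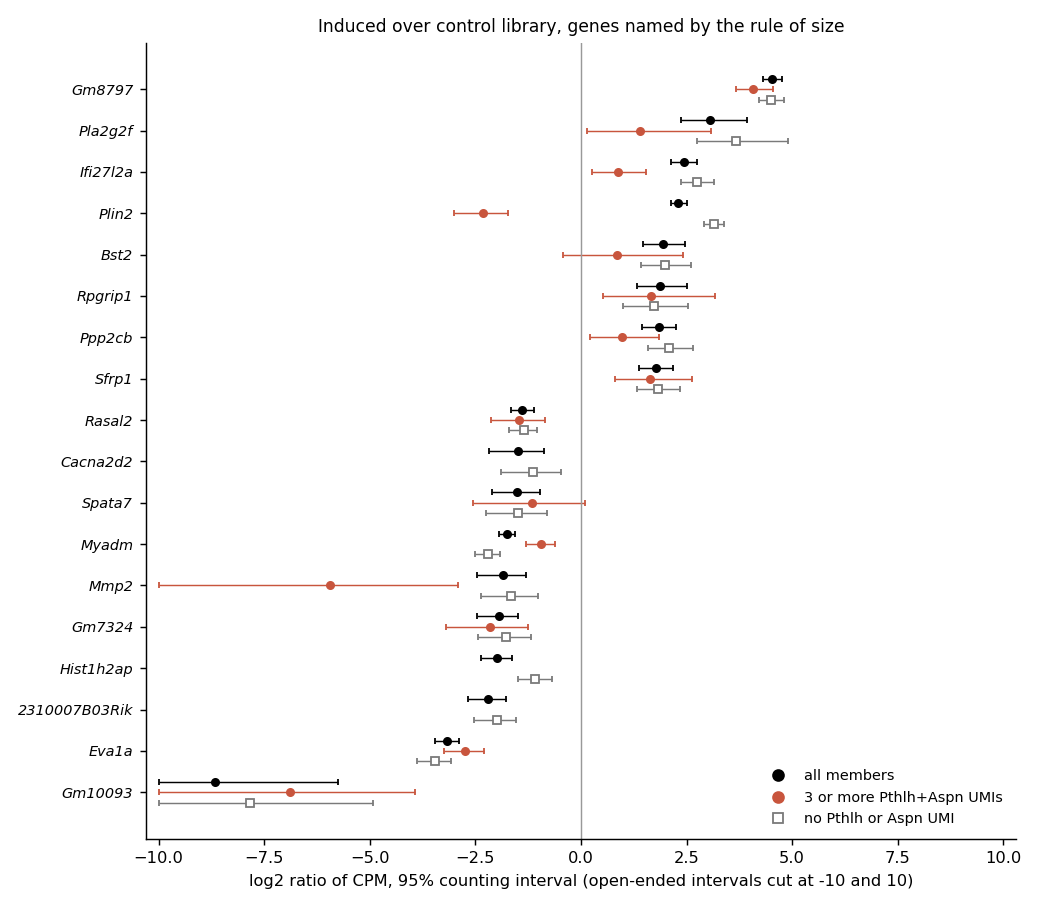
Log2 ratios of induced over control CPM with 95% counting intervals for genes named by the rule of size, in all selected cells, in Pthlh/Aspn-positive cells and in Pthlh/Aspn-negative cells; a gene with too few UMIs in a class has no point, and points for Gm10093 and for Mmp2 in positive cells depend on the 0.5 UMIs added to a sum of 0. Gm8797 stands at 4.53 in all selected cells and 4.08 in positive cells, and Plin2 stands on opposite sides of 0 in the positive and negative cells.

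Several of the large differences between the libraries were also present in the other keratinocyte sets. Gm8797, a predicted gene, stood at 26.7 and 620 CPM in selected cells, with log2 ratios of 4.53 in selected cells, 4.74 in bulge cells and 4.51 in other keratinocytes. Gm10093, also a predicted gene, was counted 220 times in control and 0 times in induced selected cells, and 815 and 4 times in other keratinocytes. Reads of such genes may be shared with near-identical copies, so these 2 values are uncertain. Eva1a, a regulator of autophagy, stood at 190.2 and 21.1 CPM in selected cells, a log2 ratio of -3.17 (-3.46 to -2.90), and its log2 ratio in other keratinocytes was -2.99. Myadm stood at 159 and 47.4 CPM, a log2 ratio of -1.74, and at -2.27 in other keratinocytes. The remaining genes at the lower end were 2310007B03Rik, Cacna2d2, Gm7324, Hist1h2ap, Mmp2, Rasal2 and Spata7, and those at the upper end included Pla2g2f, Rpgrip1, Ppp2cb and Sfrp1.

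Some differences lay in the negative cells more than in the positive cells. Plin2, a lipid droplet coat protein, stood at 42.6 and 377 CPM in negative cells and at 76.8 and 15.1 CPM in positive cells, in opposite directions. Of the Plin2 UMIs in control selected cells 77.9% lay in 5 cells, Plin2 is also a sebaceous marker whose list had the same 2 directions, and the difference between the 2 classes was not tested. The interferon-inducible genes Ifi27l2a and Bst2 stood higher in induced selected cells. Ifi27l2a had log2 ratios of 2.74 (2.37 to 3.15) in negative cells, 0.87 (0.26 to 1.55) in positive cells and 0.24 (-0.40 to 0.90) in bulge cells. Of 6 suprabasal genes, 3 stood higher in induced selected cells (Calm4, Krt1 and Krt10) and 1 lower (Lor, with a log2 ratio of -0.96). Of all genes, 5.30% and 2.97% did. Krt1 had a log2 ratio of 1.95 and Krt10 of 0.88, and 5 cells held 84.3% of the induced Krt1 UMIs and 70.6% of the induced Krt10 UMIs. In cells with 3 to 4 summed marker UMIs Krt10 stood at 72.9 and 495 CPM, which was 653 of the 861 induced UMIs. In cells with 20 or more it stood at 119 and 31.0 CPM, lower in the induced library.

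Dissociation stress genes and cycling genes were described beside these differences. Of 20 stress genes, 3 stood higher in induced selected cells (Fos, Klf2 and Socs3), none stood lower, and the median log2 ratio was 0.20, beside 5.30% higher and 2.97% lower of all genes. The sum of the stress list was 13254 and 15673 CPM in selected cells, with 17943 and 22051 CPM in positive cells and 28527 and 29182 CPM in bulge cells. Of 12 cycling genes, 1 stood lower in induced selected cells (Top2a, 90.3 and 58.9 CPM) and none higher. Of all genes, 2.97% stood lower and 5.30% higher. In positive cells 2 of 4 measured stood lower (Mki67 and Top2a) and none higher, where 294 and 284 of 7877 genes did. In negative cells 2 of 12 stood higher (Ccna2 and Cdk1) and none lower, where 596 and 265 of 9644 genes did. The part of stress in the other differences was not tested.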

How the data were processed

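The authors ran Cell Ranger (3.0.1 in the file header, with mm10 as the build in the submitters' processing notes) and deposited raw UMI counts per gene and barcode, without normalization. Cells were kept with more than 200 and fewer than 5000 genes and under 10% mitochondrial UMIs, as the study states. Doublets were not removed and no caller was run. UMIs were summed per cell set and library and scaled to CPM. To each sum 0.5 UMIs were added before log2 ratios were taken, and a gene was used when its UMIs over the 2 sets compared reached 20. Genes were counted when past 2-fold the same way in both libraries (between cell sets), or past 1.5-fold with a 95% counting interval that excludes 1 (between libraries). A share of 0 was read against a floor of 3 counts. Python 3.11.15, numpy 2.4.6, scipy 1.17.1, pandas 2.3.3 and matplotlib 3.10.9 were used, and ratios were tested on simulated counts.

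The members and gene lists were chosen with earlier results of these data known. Named genes were the rule genes, Robo2, the niche, hedgehog, bulge, PTHrP and target lists, members of other lists past the fold, and the extremes by log2 ratio. The extremes were the 12 highest and 8 lowest over other keratinocytes with 200 UMIs or more, and the 10 highest and 10 lowest between libraries with 100 UMIs or more, the 5 highest cells holding under 50% of the higher library's UMIs. The same 12 and 8 were taken between positive and negative cells, a choice made after the values were seen, as was naming Cd207. Some genes that the rule names are not reported here. Immune cells for background shares were kept cells with under 20 keratin UMIs and 3 or more immune-list UMIs. Sequences came from RefSeq, GRCm38.p6.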

Additional observations from a re-analysis of the deposited data

Results flagged for a closer look

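Barcodes that the filter removed also met the marker thresholds, in data outside every comparison above. In the control library 41 of 609 removed barcodes did, 37 of them at 10% or more mitochondrial UMIs and 4 at 5000 or more genes, and 2 held 3 or more Pthlh and Aspn UMIs. In the induced library 34 of 636 removed barcodes did, 22 by mitochondrial UMIs and 12 by gene number, and 8 held 3 or more Pthlh and Aspn UMIs. Their median depths were 5574 and 5129.5 UMIs. They were not used further.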

How the results depend on the processing

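No paired analysis was possible because each group held 1 library and no result comes from a test. Of 108 main results under alternatives, 90 moved by less than their counting interval or under 1.5 times. With under 5% mitochondrial UMIs, Robo2 in control selected over other keratinocytes gave 4.86, and the member share differed by 4.12 points. Thinning to 5000 UMIs before selection gave 272 lower genes over other keratinocytes, 309 genes higher in induced selected cells, a Robo2 ratio of 4.20 in the induced library, and a difference in the Pthlh/Aspn-positive share of 6.40 points. The mean over cells of CPM gave Robo2 at 5.03 in the control. At 100 UMIs or more, 147 genes stood higher over other keratinocytes, and 267 higher and 159 lower between libraries. The following were chosen after seeing the data. With positive cells alone, 575 genes stood higher and 551 lower over other keratinocytes, 284 stood higher in the induced library, Robo2 gave 6.02 and 6.11, and the direction reversed for Lgr5 over other keratinocytes in the control (-0.26) and between libraries for Gli3 (0.37) and Plin2 (-2.32). With negative cells alone, 153 genes stood higher over other keratinocytes, Robo2 gave 2.23 and 2.89, and Ntf3 in the control reversed (-0.23). The cause of each was not tested beyond what an alternative itself leaves out. Not every gene reported here was rerun under the alternatives. Among the genes that were, no other called direction reversed. Outside them, Mgst1 and Rhoc were called higher in all induced selected cells but lower in induced positive cells. With 1 mouse per group, no spread between mice is known.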
